A study of Mus musculus and blank sample with 91 samples.

Results

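The family Peptostreptococcaceae was followed in the feces of naïve, CFA and EAE mice, with the members taken as every amplicon sequence variant (ASV) that the deposited taxonomy places in that family. The rule gave 18 of 2295 ASVs, all named genus Romboutsia. An ASV is a distinct amplified sequence inferred from the reads, here from regions V3 and V4 of the bacterial 16S rRNA gene. Female C57BL/6 mice were sampled at days -2, 8, 14, 19 and 29 relative to immunization (dpi). Naïve mice were not treated. EAE (MOG+CFA) mice were immunized under the skin with 50 μg of MOG35–55, a peptide of a myelin protein, in Complete Freund's Adjuvant, and 250 ng of pertussis toxin is listed for days 0 and 2. CFA mice were given the adjuvant without the peptide, and the labels do not say plainly whether they also had the toxin. EAE, experimental autoimmune encephalomyelitis, is a mouse model of multiple sclerosis.

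Each group had 6 mice, except for 5 in the EAE group at 14 dpi and 5 in the CFA group at 29 dpi, where a further sample (mouse 548) had a total of 0 counts. Counts were therefore taken from 88 samples, with totals of 9202 to 102437 and a median of 64586. The 4 lowest totals were in EAE samples, those of mice 551 and 555 at 8 dpi (17439 and 9202), 589 at 14 dpi (17326) and 595 at 19 dpi (15279). Mice were kept 2 to 3 per cage with treatment assigned by cage, and the labels do not give the cages, so that cage and treatment cannot be told apart in any comparison below. The water controls of the sequencing were not analysed here.

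Peptostreptococcaceae are anaerobic, Gram-positive bacteria of the class Clostridia, many of which form spores and ferment amino acids or sugars. Romboutsia is a genus of this family whose members live in the intestine of rodents and other mammals, the small intestine in particular. Some Clostridia are known for fermentation products that the host's immune cells respond to. In 16S data the genus is read as a share of all amplicons of a sample, so that more cells of the genus and fewer cells of other bacteria cannot be told apart.

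The ASVs began and ended with the designed primers, in which some positions are mixtures of bases. The primers had not been removed, so the same bacterial sequence was listed separately for each combination of bases at the 2 ambiguous positions of the forward primer and the 2 of the reverse primer. Without primers, the 18 ASVs were 4 distinct sequences, of 501 in the whole table. Sequence 1, with 401 bases, held 14 ASVs, all named Romboutsia timonensis, and 67510 of the 67531 member counts (99.97%). It was the sequence found in all 27 samples with counts of the family. Its nearest neighbour outside the family was a sequence named Ihubacter-Anaerovorax with 88.9% identity, and the next were 2 sequences of Clostridium sensu stricto 1 with 88.6%.

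The other 4 ASVs, named Romboutsia timonensis/ruminantium, were rare. Sequence 2 had 10 counts in EAE mouse 595 at 14 dpi, and sequences 3 and 4 had 6 and 5 counts in EAE mouse 594 at 29 dpi. Both samples also held sequence 1. Sequences 2, 3 and 4 matched sequence 1 base for base over their last 246, 280 and 270 bases. Over their first 85, 23 and 135 bases they matched an ASV of another family in the same sample, Ruminococcaceae UCG-014 for sequence 2 and Muribaculum for sequences 3 and 4. Whether they are separate organisms was not tested. They held 21 counts in all and are included in the percents and in the numbers of ASVs and primer variants per sample below.

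Before immunization the family was unevenly spread over the 3 groups. All 6 CFA mice carried it at -2 dpi, at 4.35%, 3.12%, 3.35%, 0.565%, 4.68% and 1.05% of the sample's counts in mice 543 to 548. Of the 6 EAE mice, mouse 550 had 1.90% and mouse 557 had 1.27%, and the other 4 had 0. Of the 6 naïve mice only mouse 558 had counts, 0.666%. The means were 2.85% ± 1.70 in CFA mice, 0.528% ± 0.842 in EAE mice and 0.111% ± 0.272 in naïve mice (SD, n = 6 each).

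The difference at -2 dpi between CFA and naïve mice was 2.74 percentage points (p = 0.00433 in a two-sided exact permutation test). It did not pass after adjustment over 26 families (exact permutation test, adjusted p = 0.113), a comparison in which 0% of families were called. On the centred log ratio scale of the closing section, the difference between CFA and naïve mice passed. EAE mice were 2.33 points below CFA mice (-2.33, exact permutation test, p = 0.0216, adjusted p = 0.281; 0% of families called). Presence differed between 6 of 6 CFA and 1 of 6 naïve mice with p = 0.0152 by Fisher's exact test (adjusted p = 0.197; 0% of families called). By the quasi-likelihood test of edgeR no contrast at -2 dpi was called for the family (adjusted p = 0.228 for CFA against naïve, 0.604 for EAE against CFA and 1 for EAE against naïve). The naïve, EAE and CFA groups thus started from 1, 2 and 6 carriers.

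**Figure D1:**
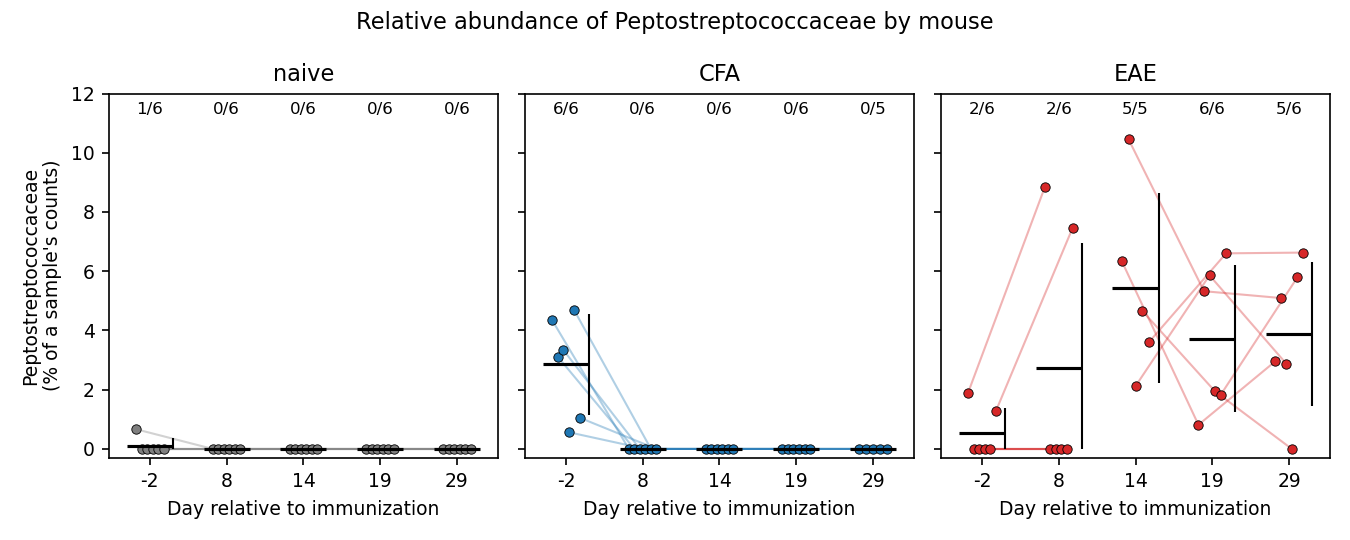
Percent of a sample's counts in Peptostreptococcaceae (y axis) by day relative to immunization (x axis) for naïve, CFA and EAE mice. Points are mice, thin lines join samples with the same mouse number in the labels, the horizontal bar is the mean, the vertical bar is ± 1 SD with its lower end stopped at 0, and the fractions are mice with counts over mice sampled. CFA mice go from 6 of 6 carriers at -2 dpi to 0 at each later day, while 16 of 17 EAE samples at 14 to 29 dpi had counts.

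After immunization, the family was found in 18 of 23 EAE samples and in 0 of 47 samples of naïve and CFA mice. With a floor of 3 counts, a sample at 0 allows a share of up to 0.00293% to 0.0326%, depending on its total, and such limits cover counting error only. The lowest count of the family above 0 was 305, or 0.565% of a sample, so that a 0 may stand for more than 3 counts. The pattern by mouse is shown in the plot of percent by day.

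At 8 dpi, before clinical signs, counts were found in 2 of 6 EAE mice. They were the same mice, 550 and 557, that had carried the family at -2 dpi, now at 8.84% and 7.46%. The other 4 EAE mice were at 0, with totals of 17439 for mouse 551, 46272 for mouse 553, 9202 for mouse 555 and 54765 for mouse 556. The group mean was 2.72% ± 4.23 (SD, n = 6), or 505-fold above naïve mice when each of them is put at its floor.

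The tests gave different answers at 8 dpi. The exact permutation test of the difference in means did not pass (2.72 points, p = 0.455, adjusted p = 0.985 against naïve and 0.788 against CFA mice; 0% of families called in both). Fisher's exact test of 2 of 6 against 0 of 6 carriers gave p = 0.455 as well. The edgeR test called the family higher against naïve mice (adjusted p = 0.00759, where 4.35% of families were called higher) and against CFA mice (adjusted p = 0.00334, where 21.7% were called higher). That call rests on mice 550 and 557.

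At 14 dpi, the onset of signs, all 5 EAE mice had counts. Mouse 588 had 6.35%, mouse 589 had 10.5%, mouse 591 had 2.12%, mouse 593 had 4.66% and mouse 595 had 3.62%. The lowest of them lay above every naïve and CFA mouse, all of which were at 0. The mean was 5.44% ± 3.20 (SD, n = 5). With each naïve and CFA mouse put at its floor, it was 988-fold above naïve and 1223-fold above CFA mice, for counting error alone. The difference passed the exact permutation test against naïve mice (5.44 points, p = 0.00216, which is the lowest p possible with 5 and 6 mice, adjusted p = 0.00938), where 15.4% of families were called higher. It passed against CFA mice too (adjusted p = 0.0113 in the exact permutation test), where 30.8% of families were called and 23.1% called higher. In each of the 2 comparisons 15.4% of families were higher without overlap between groups. The edgeR test called the family higher in both (adjusted p = 0.00173 and 0.00120, with 8.7% and 39.1% of families called higher).

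At 19 dpi, the peak, all 6 EAE mice had counts, with 0.814% in mouse 588, 5.33% in 589, 5.86% in 591, 1.94% in 593, 1.82% in 594 and 6.60% in 595. Again no EAE mouse overlapped with naïve or CFA mice. The mean was 3.73% ± 2.48 (SD, n = 6). This was 892-fold above naïve and 605-fold above CFA mice with each of them put at its floor. The exact permutation test gave p = 0.00216 for both, with an adjusted p of 0.0141 against naïve mice (7.69% of families called higher) and 0.0113 against CFA mice (15.4% called higher). The edgeR test called the family higher in both (adjusted p = 0.00332 and 0.00297, with 8.7% and 17.4% of families called higher). Without mouse 595, the EAE sample of lowest depth at that day, the difference from naïve mice was 3.15 points (exact permutation test, adjusted p = 0.0188).

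At 29 dpi, the chronic phase, 5 of 6 EAE mice had counts. Mouse 588 had 2.96%, 589 had 5.10%, 591 had 2.88%, 594 had 5.79% and 595 had 6.63%. Mouse 593 was at 0 with a total of 96416, after 4.66% at 14 dpi and 1.94% at 19 dpi. It was the only EAE mouse whose counts disappeared between 14 and 29 dpi. The mean was 3.89% ± 2.43 (SD, n = 6). This was 1086-fold above naïve and 956-fold above CFA mice with each of them put at its floor. The exact permutation test gave p = 0.0152 in both comparisons and missed the threshold after adjustment (adjusted p = 0.0657 against naïve, where 7.69% of families were called higher, and 0.0985 against CFA mice, where 0% were called and 3.85% were higher without overlap). The edgeR test called the family higher in both (adjusted p = 0.00237 and 0.00609, with 17.4% and 21.7% of families called higher).

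Fisher's exact test of presence passed at 14 and 19 dpi between EAE and CFA mice (adjusted p = 0.0281 at both days, with 7.69% of families called). At 14 dpi the call was lost without mouse 588, 591, 593 or 595 (Fisher's exact test, adjusted p = 0.0619), and kept without mouse 589. Against naïve mice the same counts of carriers gave Fisher's exact p = 0.00216 and an adjusted p of 0.0563 at both days, with 0% of families called. At 29 dpi, 5 of 6 EAE mice against none of the others gave p = 0.0152 by Fisher's exact test and an adjusted p of 0.197 in both comparisons. The comparisons with naïve and with CFA mice share the EAE samples and are not independent of each other.

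CFA mice were followed by mouse number, and the family went from present to undetected in all of them. The 6 mice with 0.565% to 4.68% at -2 dpi had 0 counts at 8, 14 and 19 dpi, and the 5 mice sampled at 29 dpi had 0 as well. The -2 dpi mean was 552-fold, 642-fold, 463-fold and 701-fold above the mean floor of the later days, for counting error alone. The paired exact sign-flip test gave p = 0.0312 at 8, 14 and 19 dpi, the smallest that 6 mice allow, with all 6 mice lower. At 29 dpi the exact p was 0.0625, the smallest for 5 mice, and all 5 were lower. After adjustment none passed (sign-flip permutation test, adjusted p = 0.203, 0.163, 0.406 and 0.406; 0% of families called at each day). Unpaired edgeR tests called the family lower in CFA mice at all 4 days (adjusted p = 0.00507, 0.00412, 0.00667 and 0.0127, where 8.7%, 4.35%, 4.35% and 4.35% of families were called lower). With the mouse number as a block, edgeR kept the call at 8 dpi (adjusted p = 0.0345) and lost it at 14, 19 and 29 dpi (adjusted p = 0.184, 0.365 and 0.183).

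In naïve mice the only carrier, mouse 558, was at 0 from 8 dpi on. The mean change of -0.111 points gave p = 1 in the exact sign-flip test at each day. The edgeR test called the family lower at 19 and 29 dpi (adjusted p = 0.0464 and 0.0460, 4.35% of families called lower) and not at 8 and 14 dpi (adjusted p = 0.0543 and 0.0565), and all 4 values rest on that mouse.

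Within EAE mice, the change from -2 to 8 dpi was 2.19 points on average, with 2 of 6 mice higher and 4 at 0 at both days (exact sign-flip permutation test, p = 0.5, adjusted p = 1). The labels number the EAE mice differently from 14 dpi on, so that later days were first compared with -2 dpi without pairing. At 14 dpi the family was 4.91 points higher (adjusted p = 0.0141, exact permutation), where 19.2% of families were called. The difference from -2 dpi was 3.20 points at 19 dpi and 3.36 points at 29 dpi, and neither passed (exact permutation tests, adjusted p = 0.0844 and 0.113, with 7.69% of families called at each). The edgeR test called none of the 4 days in EAE mice (adjusted p = 0.844, 0.444, 1 and 0.518).

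The deposited sample table gives each EAE mouse a subject number that joins both sets of labels, such as 550 for mouse 588 and 557 for mouse 595. By these numbers the 2 mice that carried the family at -2 dpi later had 6.35%, 0.814% and 2.96% (mouse 588) and 3.62%, 6.60% and 6.63% (mouse 595) at 14, 19 and 29 dpi. The 3 mice sampled at 14 dpi that had shown no counts at -2 and 8 dpi (labelled 589, 591 and 593) had 10.5%, 2.12% and 4.66%. Carriers and non-carriers before immunization thus overlapped at each of these days. Paired by subject numbers, the exact sign-flip permutation test gave p = 0.0625 at each of the 3 days (adjusted p = 0.325, 0.325 and 0.271).

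Since the groups differed before immunization, the change per mouse was also compared between treatments. From -2 to 8 dpi, EAE mice changed by 2.19 points and CFA mice by -2.85 points, a difference of 5.04 points (exact permutation test, p = 0.00216, adjusted p = 0.0563; 0% of families called). Against naïve mice, which changed by -0.111 points, the difference was 2.30 points (exact permutation test, p = 0.273, adjusted p = 0.680; 0% of families called). CFA and naïve mice had a difference of -2.74 points in their change, which did not pass (adjusted p = 0.113 in the exact permutation test; 0% of families called).

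Samples with and without the family overlapped in depth. Totals of the 27 samples with counts ran from 15279 to 102194 with a median of 64953, and those of the 61 samples without from 9202 to 102437 with a median of 64219. The lowest count of the family above 0 was 305, in CFA mouse 546 at -2 dpi, and no sample had between 1 and 100. Small values were also rare for all ASVs together, with 7.83% of the 8406 values above 0 lying under 100. A count of 0 in these files may thus stand for more than the floor of 3 counts, and the fold values above are bounds for counting error alone.

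**Figure D2:**
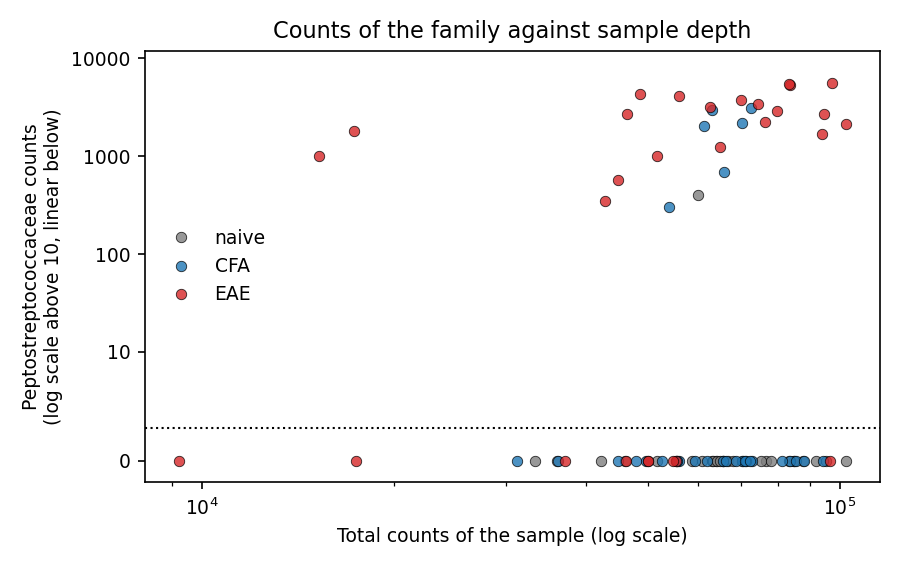
Counts of Peptostreptococcaceae (y axis, log scale above 10 and linear below) against the total counts of each sample (x axis, log scale), coloured by treatment. The dotted line is the floor of 3 counts. Samples lie either at 0 or at 305 to 5635 counts, at shallow and deep totals alike.

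The 14 ASVs of sequence 1 were combinations of 4 forward and 5 reverse primer variants, each found in 3 to 8 samples. They are readings of the same bacterial sequence and not independent members. A sample held 1 to 6 member ASVs. Without sequence 2, EAE mouse 595 at 14 dpi would have 3 member ASVs in place of 5. The 7 samples with 1 member ASV had a median of 1.05% (0.565% to 6.60%), the 12 with 2 or 3 had 3.24% (1.82% to 6.35%), and the 8 with 4 or more had 6.21% (3.62% to 10.5%). The number of ASVs and the percent were correlated across the 27 samples (Spearman's rho = 0.73, a description over samples that share mice). In each of the 7 samples with 1 member ASV, all counts were in forward variant 1 or 2. Over the 27 samples these held 40.0% and 36.7% of the counts of all bacteria. Whether counts of other variants were lost in the 7 samples was not tested. Such losses would lower their percents and enter the correlation.

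Forward variants 1, 2 and 3 held 40.3%, 33.9% and 21.6% of the family's counts. In the same 27 samples these variants held 40.0%, 36.7% and 9.94% of the counts of all bacteria. Variant 3 had a larger share in Romboutsia than in all bacteria in 19 of 27 samples. At the reverse end, 23 of 27 samples showed 1 variant and 4 showed 2, of which EAE mouse 595 at 14 dpi showed the further variant only in sequence 2. Among sequences of other families with at least 305 counts in a sample, 88.7% had 1 reverse variant there. Forward variants 1, 2 and 3 carried sequence 1 in CFA mice at -2 dpi and in EAE mice after immunization, as the plot of primer variants shows. Variant 4 of sequence 1 was found in 4 samples, all of EAE mice, with 5.33% to 10.5% of counts in the family.

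**Figure D3:**
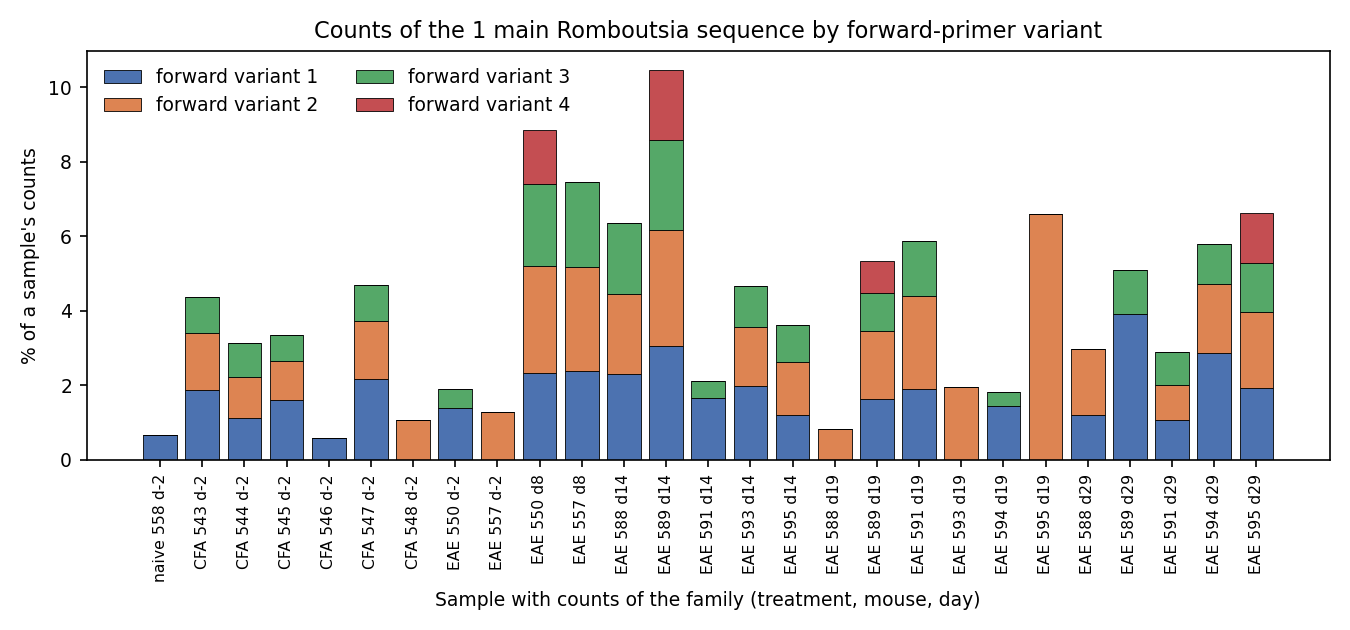
Percent of a sample's counts (y axis) in sequence 1 of Romboutsia for the 27 samples with counts (x axis; treatment, mouse and day), with bars split by forward-primer variant. The 3 highest bars, of EAE mice 589 at 14 dpi and 550 and 557 at 8 dpi, hold 3 or 4 variants, and the same bacterial sequence is behind every bar.

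No single member ASV passed the test. Of the 18 member ASVs, 14 had counts in at least 3 samples and were tested by edgeR among 648 ASVs. None was called in any of the contrasts between treatments, where 0% to 9.26% of all ASVs were called, and the lowest adjusted p of a member was 0.0632, in EAE against CFA at 8 dpi. With primer variants merged, sequence 1 was called higher in EAE against naïve mice at 8, 14, 19 and 29 dpi (edgeR, adjusted p = 0.0275, 0.0130, 0.0174 and 0.0117) and in EAE against CFA mice at the same days (adjusted p = 0.00874, 0.00849, 0.0149 and 0.0303). In those fits 203 sequences were tested, of which 1.48% to 36.9% were called.

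EAE mice with a clinical score of 0 also carried the family after immunization. At 14 dpi, mice 591 and 593 had a score of 0 with 2.12% and 4.66%, mouse 588 had a score of 1 with 6.35%, and mice 589 and 595 had scores of 3 and 3.5 with 10.5% and 3.62%. Mouse 591 still had a score of 0 at 19 dpi, with 5.86%. Its body weight of 15 g was the lowest of the EAE mice at 19 dpi, after 19.4 g at 14 dpi. The highest scores at 19 dpi, 4 in mice 593 and 594, went with 1.94% and 1.82%. At 29 dpi the mouse without counts, 593, had the highest score, 3.75.

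Across the 6 EAE mice, percent and score had r = -0.379 at 19 dpi (rho = -0.265, exact permutation p = 0.5 and 0.667) and r = -0.406 at 29 dpi (rho = -0.261, exact permutation p = 0.433 and 0.589). Percent and weight had r = 0.464 at 19 dpi (rho = 0.200, exact permutation p = 0.357 and 0.714) and r = 0.737 at 29 dpi (rho = 0.886, exact permutation p = 0.103 and 0.0333). None of the 4 relations passed after adjustment (exact permutation tests, adjusted p of r from 0.411 to 0.5 and of rho from 0.133 to 0.714). Without the 2 mice farthest from the median on the x axis, r with the score became 0.0937 at 19 dpi and 0.557 at 29 dpi, so that both changed sign. With the weight it became -0.873 at 19 dpi and stayed at 0.732 at 29 dpi.

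**Figure D4:**
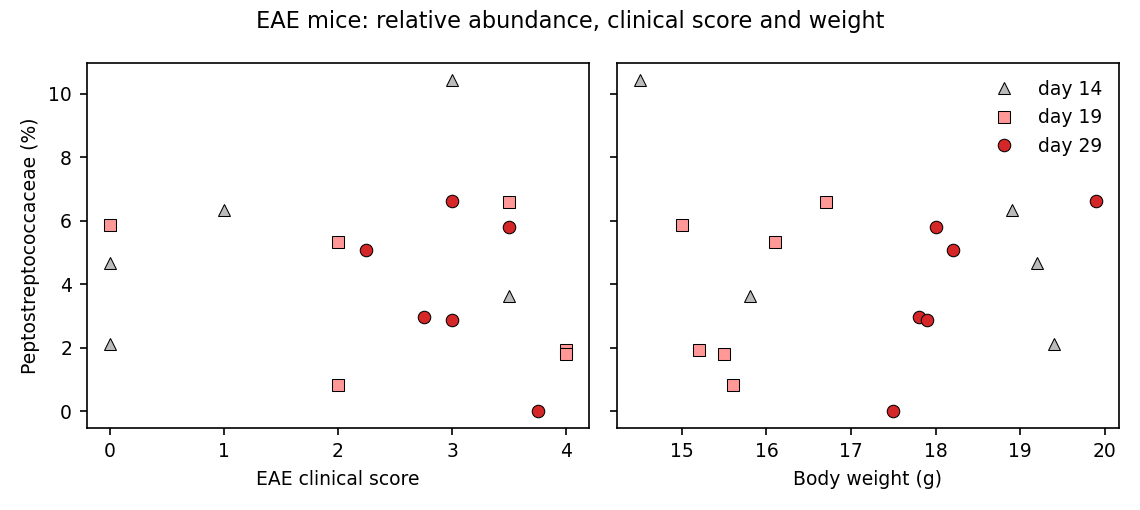
Percent of counts in Peptostreptococcaceae (y axis) against the EAE clinical score (left) and body weight in grams (right) of EAE mice at 14, 19 and 29 dpi, with 1 point per mouse and day. Mice with a score of 0 hold 2.12% to 5.86%, and the mouse at 0% has a score of 3.75.

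By edgeR, other families of the class Clostridia were called in both directions. Of these 11 families, 10 had counts in at least 3 samples. By edgeR against naïve mice, the number called higher in EAE mice was 0 before immunization and then 0, 1, 0 and 2 at the 4 later days, and the number called lower was 0 and then 1, 0, 2 and 0. Of all 23 families, 0%, 4.35%, 8.7%, 8.7% and 17.4% were called higher and 0%, 13%, 4.35%, 17.4% and 8.7% lower at these days. Their median log2 fold change was 0.00, -0.30, -0.08, -0.90 and 0.64 from -2 to 29 dpi, beside 0.00, -0.61, 0.00, -0.71 and 0.42 over all 23 families tested. Against CFA mice, 1, 2, 3, 1 and 2 were higher and 0, 2, 3, 2 and 0 were lower from -2 to 29 dpi, where 8.7%, 21.7%, 39.1%, 17.4% and 21.7% of all families were called higher and 0%, 17.4%, 17.4%, 13% and 4.35% lower. The families called lower against naïve mice were Clostridiales vadinBB60 at 8 dpi, and the same family with Mogibacteriaceae/Anaerovoracaceae at 19 dpi. In naïve mice they held 0.186% at 8 dpi, and 0.0475% and 0.0819% at 19 dpi. The exact permutation test on percents called Ruminococcaceae, Clostridiaceae and Eubacteriaceae higher than in naïve mice at 14 dpi (adjusted p = 0.00938 each), where 15.4% of families were called higher. It called none of the class lower at that day. Of these 3 it called only Ruminococcaceae at 19 dpi and only Clostridiaceae at 29 dpi.

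Ruminococcaceae, which hold many fibre-degrading gut bacteria, had the largest mean difference of these families between EAE and naïve mice over 8 to 29 dpi. At 14 dpi they held 27.1% ± 11.8 (SD, n = 5) in EAE and 5.12% ± 1.79 (SD, n = 6) in naïve mice, and edgeR called them higher (log2 fold change 1.97, adjusted p = 0.00160). Clostridiaceae, the family of Clostridium itself, stood at 6.34% ± 2.96 (SD, n = 5) against 0.776% ± 0.517 (SD, n = 6), which passed the exact permutation test (adjusted p = 0.00938) and not edgeR (log2 fold change 2.73, adjusted p = 0.385). Lachnospiraceae, known for butyrate production, were at 12.5% ± 5.12 (SD, n = 5) against 17.5% ± 5.53 (SD, n = 6) and were called by neither (edgeR adjusted p = 0.385, exact permutation adjusted p = 0.469). At 14 dpi these families were found in 6 of 6, 5 of 6 and 6 of 6 naïve mice.

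Lactobacillaceae, lactic acid bacteria with the most counts before immunization, were lower in EAE than naïve mice at 14 dpi, 1.14% ± 0.809 (SD, n = 5) against 30.7% ± 10.8 (SD, n = 6; edgeR log2 fold change -5.32, adjusted p = 6.53e-05). Since a lower share of Lactobacillaceae raises every other share, Peptostreptococcaceae were also taken as a percent of counts outside Lactobacillaceae. On that scale EAE mice at 14 dpi held 2.14% to 10.7% and differed from naïve mice by 5.52 points (exact permutation test, adjusted p = 0.0113). Naïve mice at 14 dpi had no counts of the family and stay at 0 on either scale. The comparison therefore cannot show how far the lower share of Lactobacillaceae adds to the difference. CFA mice at -2 dpi held 1.37% to 8.36%.

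Among 72 other genera, 6 of which are pools of ASVs with no genus name, the percent most like that of Romboutsia over the 88 samples was that of Clostridium sensu stricto 1 (Spearman's rho = 0.67), followed by Ruminiclostridium (0.57) and Turicibacter (0.44). The least like were the pool of Lachnospiraceae with no genus name (-0.46), Lactobacillus (-0.46) and Prevotella (-0.36). Within the 23 EAE samples after immunization the rho was 0.49, 0.26 and 0.58 for the first 3, and -0.31, -0.08 and -0.06 for the last 3. These values are descriptions, as the samples share mice, libraries and a scale that sums to the whole.

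Clostridium sensu stricto 1, which holds the butyrate producer Clostridium butyricum and its relatives, had counts in all 27 samples with Romboutsia and in 27 of the 61 without. Its median was 4.28% in the former and 0% in the latter. In CFA mice it was present in 6 of 6 at -2 dpi at 1.59% ± 0.906, in 0 of 6 at 8 dpi, in 1 of 6 at 14 and at 19 dpi, and in 3 of 5 at 29 dpi at a mean of 3.45% ± 3.25 (SD). No CFA mouse had Romboutsia at 29 dpi. Turicibacter, a gut bacterium of the Erysipelotrichaceae, also had counts in all 27 samples with Romboutsia, and in 45 of the 61 without. In CFA mice it went from 11.4% ± 5.57 at -2 dpi to 0 in all 6 at 8 dpi. It then stood at 0.845% ± 1.34 in 3 of 6 mice at 14 dpi, 12.7% ± 10.1 in 5 of 6 at 19 dpi and 33.6% ± 11.9 in 5 of 5 at 29 dpi (SD). Ruminiclostridium, a genus of cellulose degraders, was at 0 in all 6 EAE mice at -2 dpi and at 6.45% ± 4.17 (SD, n = 5) at 14 dpi. In EAE mice it then stood at 3.42% ± 3.36 in 4 of 6 at 19 dpi and 0.915% ± 1.36 in 3 of 6 at 29 dpi (SD). Ruminiclostridium had counts in 16 of the 27 samples with Romboutsia and in 6 of the 61 without.

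**Figure D5:**
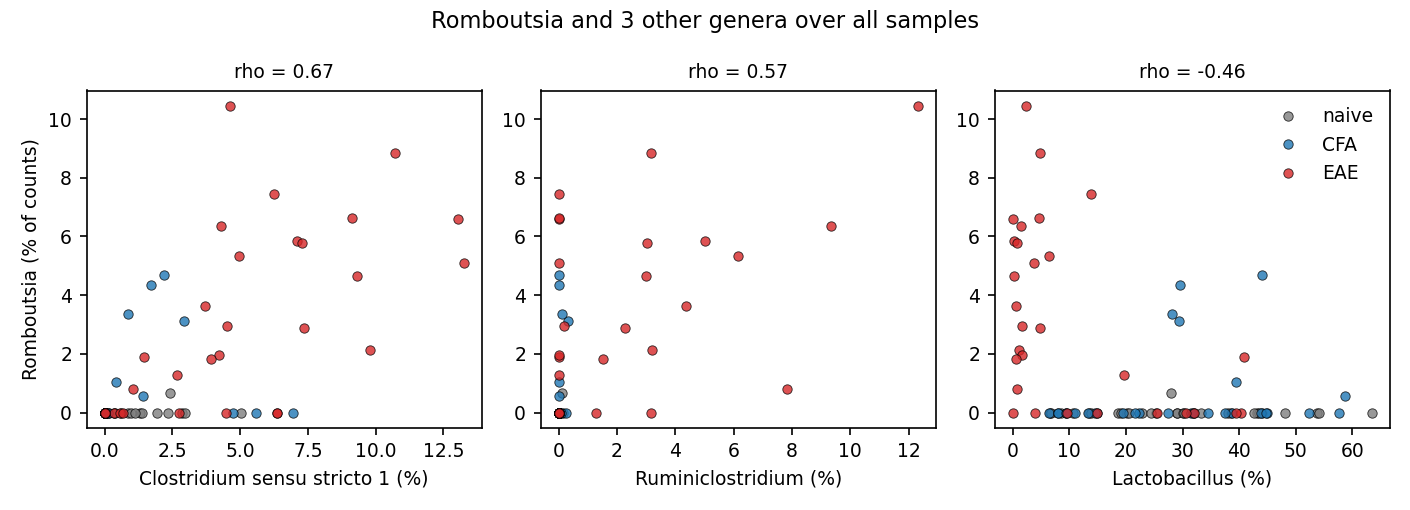
Percent of counts in Romboutsia (y axis) against that of Clostridium sensu stricto 1, Ruminiclostridium and Lactobacillus (x axes, percent of counts) in 88 samples, coloured by treatment. Every sample with Romboutsia has counts of Clostridium sensu stricto 1. Within the 23 EAE samples after immunization, Romboutsia and Lactobacillus had a Spearman's rho of -0.08.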

How the data were processed

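Fecal DNA of naïve, CFA and EAE mice was amplified over 25 cycles and sequenced by the authors, who inferred ASVs with DADA2 and deposited unscaled counts of reads per ASV and sample, with taxonomic names. A clinical score and a body weight per mouse and day were also deposited by the authors. Replicates are mice.

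Counts were summed per family, and percents were taken of a sample's total. Of 89 samples, 88 had a total above 0. Groups of treatment and day came from the labels. Group means were tested by exact permutation (two-sided), changes within mice with exact sign-flip tests and presence (at least 1 count) with Fisher's exact tests, on all 26 families with Benjamini-Hochberg adjustment and a threshold of 0.05. Counts were tested with edgeR 4.0.16 (quasi-likelihood, TMMwsp factors from genus counts, 15 groups in a single fit) on 23 families and 648 ASVs with counts in at least 3 samples. The log2 fold changes against groups at 0 are not given. The naming rule took the family and its ASVs, the 3 genera most and least alike, the 3 other Clostridia families with the largest differences from naïve mice at 8 to 29 dpi, and Lactobacillaceae.

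Mouse numbers pair samples of the same animal. Deviations of same-numbered samples from their group means had a mean correlation of -0.18 to 0.23. Percents of single samples carry a counting error only. Sequences were compared after the primers were removed. The scripts ran in R 4.3.3 and Python 3.11.15 and were tested on simulated data. The members and lists were chosen with earlier results of these data known. DESeq2 1.42.0 and the other alternatives are given in the closing section.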

Additional observations from a re-analysis of the deposited data

Results flagged for a closer look

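Mouse 558 stood apart in the naïve group at -2 dpi, with 0.666% of counts in Peptostreptococcaceae while the other 5 naïve mice were at 0. Groups of 4 to 10 mice in which any mouse had counts were searched for such values, 7 in all. A group with a single carrier and all other mice at 0 always meets this criterion, whatever the carrier's level, so that the usual rate of about 1 in 20 groups by chance does not apply.

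The change in percent since -2 dpi differed between treatments at later days when EAE mice were paired by the deposited subject numbers, a pairing chosen after seeing the data. At 14 dpi the change in EAE mice exceeded that in naïve mice by 4.92 points (exact permutation test, adjusted p = 0.0188) and that in CFA mice by 7.66 points (exact permutation test, adjusted p = 0.0281). At 19 dpi it exceeded that in CFA mice by 6.05 points (exact permutation test, adjusted p = 0.0422). At 29 dpi the differences were 3.47 points from naïve and 6.58 points from CFA mice and did not pass (exact permutation tests, adjusted p = 0.0844 and 0.113). CFA mice carried the family at -2 dpi and naïve mice for the most part did not. Neither group had counts at later days, so their change is their level at -2 dpi with the sign reversed. At 14 and 19 dpi the mean change was -2.85 points in CFA and -0.111 points in naïve mice, which is part of the differences above.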

How the results depend on the processing

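Of 345 values recomputed under the alternatives, 308 stayed on their side of the threshold, 14 no longer passed, 10 newly passed, and 13 counts of called ASVs moved from 0 to 1. The correlations without 2 mice, of which 3 changed sign, are not among these values. With medians the difference was 0 in EAE against naïve mice at -2 dpi and against both groups at 8 dpi, where 2 of 6 EAE mice had counts. With medians in place of means, the higher percent in EAE mice no longer passed (exact permutation tests) against naïve mice at 14 dpi (4.66 points) and 19 dpi (3.63 points) or against CFA mice at 14 dpi (4.66 points) and 19 dpi (3.63 points). On the centred log ratio scale 3 further comparisons passed, EAE against naïve (6.96) and CFA mice (6.45) at 29 dpi and CFA against naïve mice at -2 dpi (6.92 log units). The comparisons of EAE mice with naïve and CFA mice at 14 and 19 dpi that passed on percents passed on this scale too. Presence at 14 dpi in EAE against CFA mice, 100 points apart, did not pass at a minimum of 0.1% or without mouse 588, 591, 593 or 595 (100 to 100 points, Fisher's exact adjusted p = 0.0563 and 0.0619).

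Without the pairing (no replicate block) the change of -2.85 points in CFA mice passed the exact permutation test at 8, 14 and 19 dpi (-2.85 points each) and not at 29 dpi. With the mouse as a block, edgeR lost CFA mice at 14, 19 and 29 dpi (adjusted p = 0.184, 0.365 and 0.183), and kept CFA mice at 8 dpi and EAE mice at 8 dpi on their side of the threshold. In naïve mice the family had counts in too few samples (1) for such a fit. The difference of EAE mice at 14 dpi from -2 dpi was 4.81 points with subject numbers as a block, where all 5 mice were higher and 5 pairs cannot give an exact p below 0.0625, and no longer passed outside Lactobacillaceae (4.72 points, exact permutation adjusted p = 0.0563). The difference of changes between EAE and CFA mice at 8 dpi passed outside Lactobacillaceae (6.65 points) and without mouse 555 (5.48 to 5.48 points). DESeq2 called the family lower in naïve mice at 8 and 14 dpi (adjusted p = 1.44e-15 and 1.75e-15), values that rest on mouse 558. Of the member ASVs, 1 was called with total counts only in EAE against naïve mice at 14 and 19 dpi and against CFA mice at 8, 14 and 19 dpi, where 6.94%, 6.79%, 7.25%, 10% and 6.48% of ASVs were called, and 1 merged sequence in both comparisons at 8 to 29 dpi. The causes were not tested. With 5 or 6 mice per group, cages not given and zeros that may hide low counts, smaller differences were not detectable.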
